A study of Temora longicornis with 12 samples.

Results

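Whole adults of Temora longicornis held at 17 °C to the end of a 5-day exposure (sustained group) were compared with animals held at 14 °C throughout (control group), across all assembled transcripts with enough counts. The rule took every library of those groups, 3 sustained and 3 control, which is 6 of the 12 libraries in the study. Sustained animals reached 17 °C over 24 h and then remained there, and control animals never left 14 °C. Acute animals were moved to 17 °C for the last 24 h after 4 days at 14 °C, and recovery animals were warmed like the sustained ones but spent the last 24 h at 14 °C. Both serve here for the estimate of the spread and as values beside the named transcripts. All groups were kept in the dark in aerated vessels for 120 h in total. Of 4 replicates kept per group, 3 were sequenced. The labels do not say how many animals, or of which sex, made up a replicate, nor that each had a vessel of its own, so p-values measure the spread between these samples.

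Temora longicornis is a small calanoid copepod, a planktonic crustacean of coastal seas that grazes on algae and is eaten by fish. As an ectotherm it takes the temperature of the water. In animals generally, warming can raise the messenger RNAs of heat shock proteins, the chaperones that refold damaged proteins, and over days it can also alter messenger RNAs of metabolism, moulting and reproduction. The deposited table gives Trinity assembly identifiers and does not pair them with gene names, so no transcript here could be given a function, a position or a sequence. For the same reason neither the chaperones nor markers of tissue or sex could be looked up. In these identifiers the part up to g with its number names an assembly gene, i with its number names an isoform of it, and the part up to c with its number names a component of related assembled sequences. The table held 44985 transcripts of 35381 assembly genes in 22044 components, and 7644 genes had more than 1 isoform.

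Total counts were 29560309, 19559173 and 29096588 in the sustained libraries and 26630465, 11582848 and 19534028 in the control libraries. Control replicate 2 was the shallowest of the 6 and stood apart from the others. The root mean square difference of log2 CPM (CPM, a count divided by the scaled library total) was 0.683 to 0.781 among the sustained libraries and 0.743 between control replicates 1 and 3. It was 1.38 and 1.39 between control replicate 2 and its own group, and 1.37 to 1.46 between control replicate 2 and the sustained libraries. Control replicate 2 was thus about as far from the other control libraries as from the warmed ones. Without it, the 6 distances between a sustained and a control library ranged from 0.654 to 0.885. Sustained replicate 1 was closer to control replicate 3, at 0.654, than to either other sustained library.

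**Figure D1:**
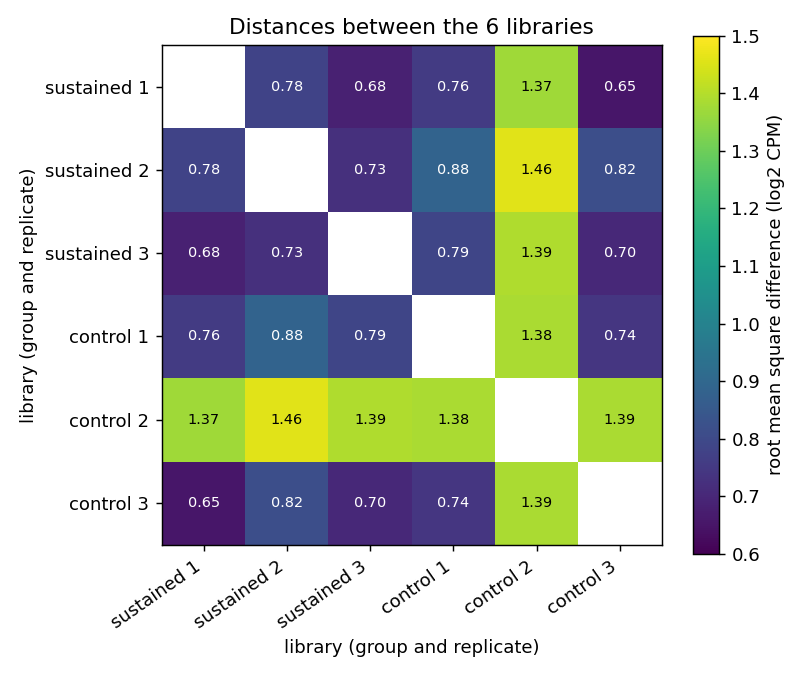
Root mean square difference in log2 CPM between each pair of the 6 libraries, with the sustained libraries first on both axes. Every pair with control replicate 2 lies between 1.37 and 1.46, whereas the 10 other pairs lie between 0.654 and 0.885 whether or not they share a group.

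The mean distance between groups exceeded the mean within groups by 0.0307 (exact permutation p = 0.1, one-sided, the smallest that 3 libraries against 3 allow here). Without control replicate 2 the excess was 0.0341 (exact permutation p = 0.3, where 3 against 2 allow 0.1). The design cannot pass 0.05 in either case. For the median transcript, the SD of log2 CPM was 0.318 among sustained libraries and 0.447 among control libraries. The SD was larger in the sustained group for 37% of transcripts. The larger control spread moved with control replicate 2, since the median absolute log2 difference was 0.33 to 0.407 between pairs of sustained libraries, 0.327 between control replicates 1 and 3, and 0.58 and 0.596 in the control pairs that include replicate 2.

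With all libraries, no transcript passed the test of sustained against control animals. Of 40943 transcripts tested with edgeR's quasi-likelihood test and Benjamini-Hochberg adjustment at a threshold of 0.05, 0 were called (0%), and the lowest adjusted p was 0.98. At an unadjusted p under 0.05, 981 transcripts were higher (2.4%) and 838 were lower (2.05%) in the sustained group, together 4.44% of those tested, where evenly spread p-values would give 5%. By library totals alone, 314 were higher and 865 lower, so the balance of the directions turned with the scaling. That scaling shifted the median log2 difference of all transcripts to -0.106 from the 0.01 of TMM scaling. The totals include TRINITY_DN157064_c6_g3_i1, which took 0.00387% to 43.8% of the counts of a library. With that transcript left out, TMM scaling gave 933 higher and 871 lower, and its part in the shift was not tested. With all transcripts and libraries, the number called was 16 by DESeq2 (0.0391%) and 3 by edgeR's exact test (0.00733%). It was 0 by voom with sample weights (0%), which had 2569 at an unadjusted p under 0.05.

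The absolute log2 difference had a median of 0.28, and 95% of transcripts lay below 1.32, with a median standard error of 0.43. For 78.7% of transcripts the 95% interval held no difference over 4-fold in either direction, and for 36.4% none over 2-fold. The precision depended on the level. Among transcripts under 1 CPM on average over the 6 libraries, 0.891% had an interval within 2-fold, against 38.7% at 1 to 10 CPM, 83% at 10 to 100 CPM and 85.1% at 100 CPM and above. For most transcripts under 10 CPM the interval thus reached past 2-fold in at least one direction, whereas for most at 10 CPM and above it did not.

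The share of transcripts at an unadjusted p under 0.05 also varied with the level. It was 5.53% under 1 CPM, 4.76% at 1 to 10 CPM, 2.16% at 10 to 100 CPM and 2.3% at 100 CPM and above. Under 1 CPM, 449 transcripts were higher and 271 lower in the sustained group at that threshold. At 10 to 100 CPM, 58 were higher and 110 lower, and at 100 CPM and above 4 were higher and 22 lower. None of these passed the adjusted threshold. When control replicate 2 was left out, 580 were higher and 174 lower under 1 CPM, 42 higher and 49 lower at 10 to 100 CPM, and 1 higher and 12 lower at 100 CPM and above. The excess of lower values at 10 to 100 CPM was thus smaller without that library. The balance at each level was not recomputed with other libraries left out or by library totals alone.

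**Figure D2:**
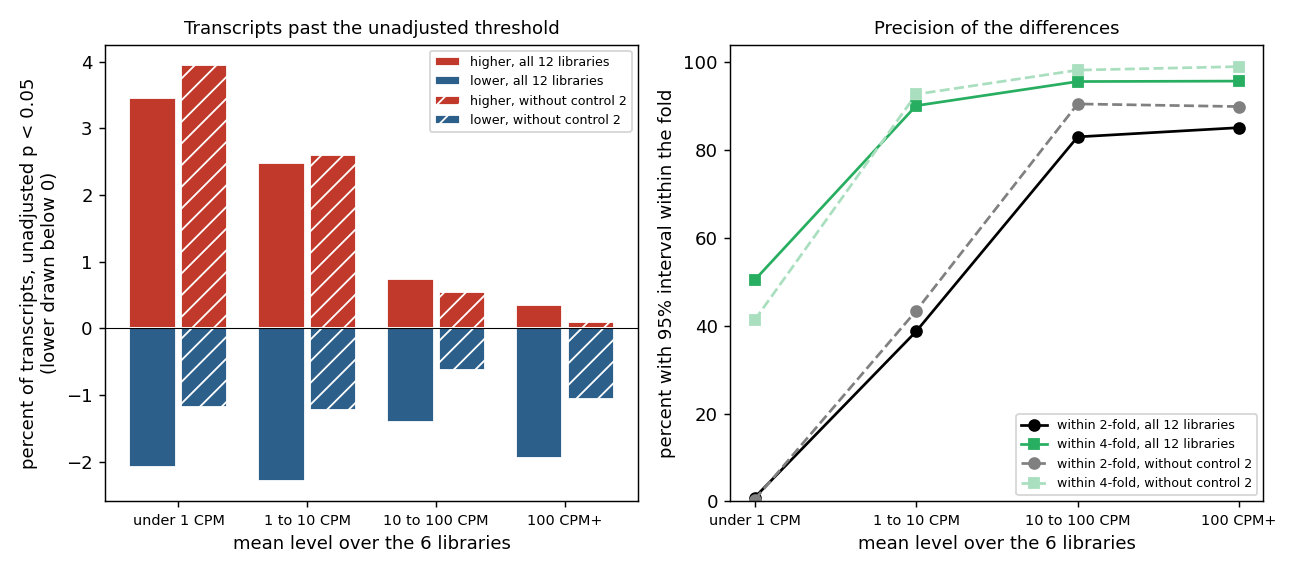
Left, percent of tested transcripts with an unadjusted p under 0.05 that were higher (red) or lower (blue, drawn below 0) in the sustained group, by mean level over the 6 libraries, with all 12 libraries (plain) and without control replicate 2 (hatched). Right, percent of transcripts whose 95% interval of the log2 difference lay within 2-fold or 4-fold; with all libraries the 2-fold share is 0.891% under 1 CPM and 85.1% at 100 CPM and above.

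The higher transcripts with the smallest p were low in level. TRINITY_DN138837_c0_g1_i1 was at 1.85, 4.87 and 2.51 CPM in the sustained libraries, against 0.479, 0.162 and 0.739 CPM in the control libraries. Every sustained library lay above every control library, and control replicate 2 was the lowest of the 6. The log2 difference was 2.63 ± 0.55 (SE; 95% interval 1.46 to 3.81), with an edgeR quasi-likelihood p of 0.00026 and an adjusted p of 0.98. The acute libraries, at 1.14 to 1.51 CPM, and the recovery libraries, at 0.857 to 2.77 CPM, also lay above all control libraries. The other isoform of the same assembly gene was at 1.31, 3.82 and 2.38 CPM in the sustained libraries and at 1.04, 0.081 and 0.856 CPM in the control libraries, a log2 difference of 1.82 ± 0.64 (SE; edgeR unadjusted p = 0.013, adjusted p = 0.98). Reads of isoforms of one gene may have been split by the counting, so the pair is not independent.

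TRINITY_DN168960_c1_g2_i1 was at 2.38, 2.81 and 3.99 CPM in the sustained libraries and at 1.12, 0.567 and 0.662 CPM in the control libraries. The groups did not overlap, and the sustained libraries also lay above the acute libraries, which reached 1.3 CPM, and the recovery libraries, which reached 1.69 CPM. The log2 difference from control was 1.93 ± 0.41 (SE; edgeR unadjusted p = 0.0003, adjusted p = 0.98). Its 2 fellow isoforms had smaller differences of 0.71 ± 0.52 and 0.7 ± 0.42 (SE; edgeR unadjusted p = 0.2 and 0.12).

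The pair with the smallest p among lower transcripts was low in the sustained libraries alone. TRINITY_DN168648_c1_g1_i1 was at 0.219, 0.252 and 0.0898 CPM in the sustained libraries, from counts of 7, 6 and 2, against 1.87, 2.76 and 1.21 CPM in the control libraries, from counts of 47, 34 and 31. No sustained library reached 0.938 CPM, the lowest of the other 9 libraries of the study. The log2 difference was -3.30 ± 0.59 (SE; 95% interval -4.56 to -2.03), with an edgeR unadjusted p of 6.2e-05, the smallest of all transcripts, and an adjusted p of 0.98. Its other isoform had 2, 2 and 1 counts in the sustained libraries and 9, 0 and 6 in the control libraries, too few to be tested.

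TRINITY_DN180259_c0_g6_i1 was at 1.81, 2.56 and 1.89 CPM in the sustained libraries and at 5.19, 7.7 and 4.98 CPM in the control libraries. The acute libraries, at 5.27 to 6.12 CPM, and the recovery libraries, at 3.78 to 6.38 CPM, also lay above all sustained libraries. The log2 difference from control was -1.51 ± 0.30 (SE; edgeR unadjusted p = 0.00016, adjusted p = 0.98). Its component held 7 other transcripts, of which 4 had a difference of the same sign and 1 an unadjusted p under 0.05. The latter was also lower in the sustained group, with a log2 difference of -1.02 ± 0.45 (SE, edgeR unadjusted p = 0.04, adjusted p = 0.98). The differences of the remaining relatives lay between -0.26 and 0.53. For all 4 transcripts the separation of the groups was made likely by their choice as the smallest p in each direction.

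**Figure D3:**
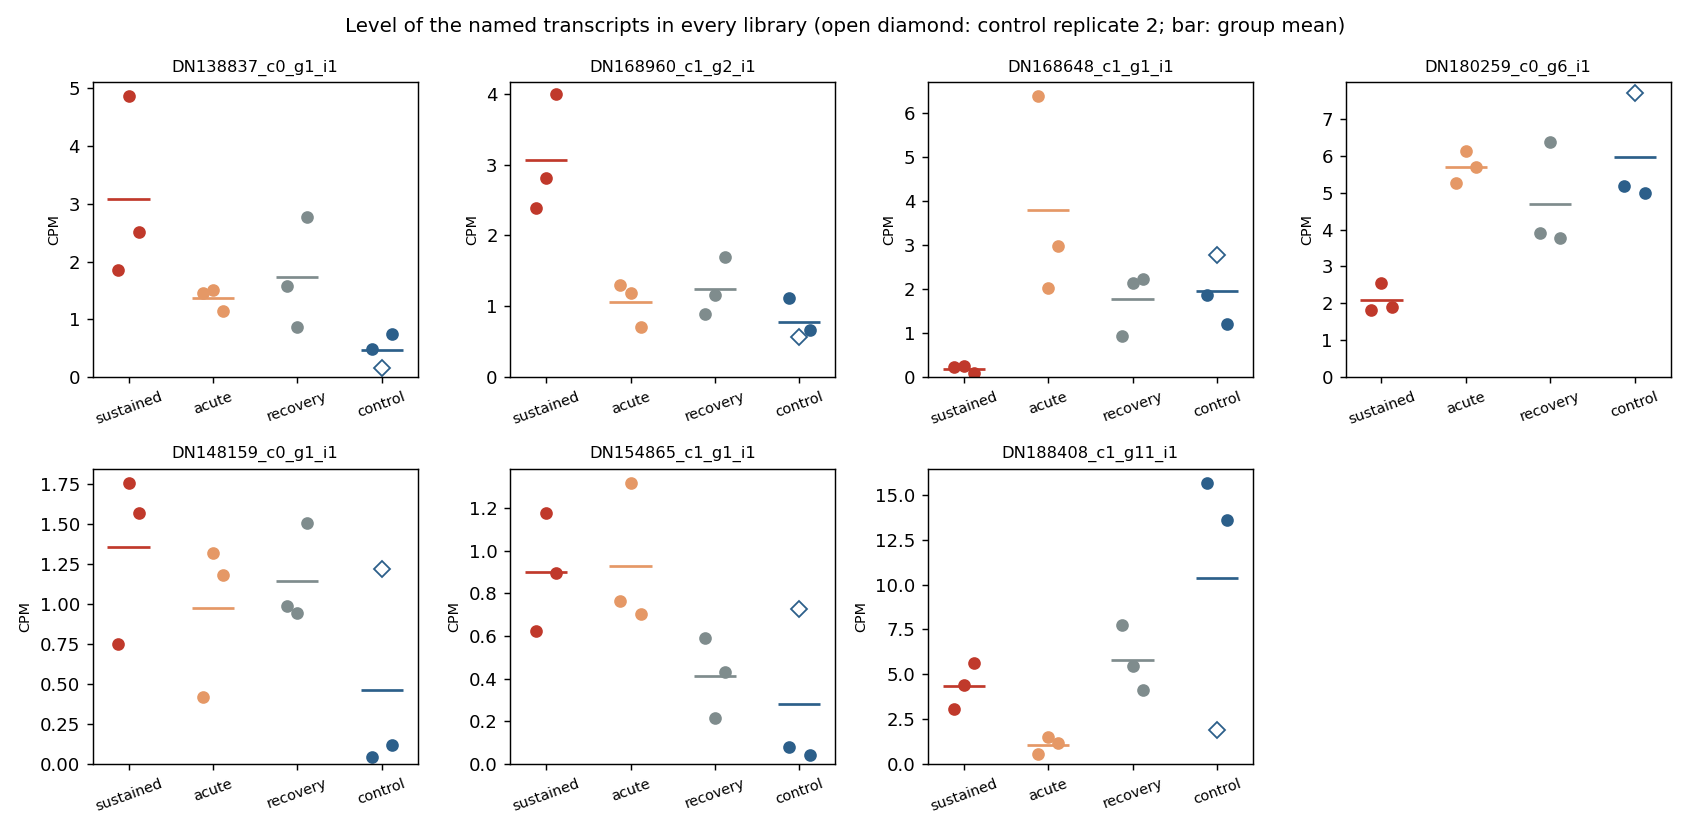
CPM of 7 named transcripts in every library of the sustained, acute, recovery and control groups, with a bar at the group mean and control replicate 2 as an open diamond. The top row holds the smallest p-values with all libraries, where sustained and control libraries do not overlap; in the bottom row, chosen without control replicate 2, that library lies away from the other 2 control libraries.

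At an unadjusted p under 0.001 there were 9 higher and 6 lower transcripts of the 40943 tested, fewer than evenly spread p-values would give. The log2 differences were 0.99 to 4.89 in the higher transcripts and -3.3 to -1.26 in the lower ones. The highest group mean among them was 33.6 CPM in the sustained libraries and 23.7 CPM in the control libraries, so none was an abundant transcript. All 15 also had an unadjusted p under 0.05 without control replicate 2. Both fits held all other libraries in common, so this was made likely by the choice and is no independent support.

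The 16 calls of DESeq2 were uneven in kind. The 4 transcripts above were among the 16, with DESeq2 adjusted p of 0.013 for TRINITY_DN138837_c0_g1_i1, 0.032 for TRINITY_DN168960_c1_g2_i1, 0.00097 for TRINITY_DN168648_c1_g1_i1 and 0.0068 for TRINITY_DN180259_c0_g6_i1. They are not called by it without control replicate 2 (adjusted p = 0.094 to 0.24). Of the 16, 3 were higher in the sustained group, with log2 differences of 1.93 to 2.65, and 13 were lower. In 5 of the 13, control replicate 2 held at least 90% of the counts over the 6 libraries. One of these had 0 counts in each sustained library, and 1360 in control replicate 2 against 1 and 2 in the other control libraries. The other 8 lower calls had DESeq2 log2 differences of -8.22 to -1.51. At the -8.22 end, TRINITY_DN179902_c1_g2_i1 had 3, 3 and 9 counts in the sustained libraries and 1236, 1654 and 4 in control replicates 1 to 3. TRINITY_DN165620_c1_g3_i1, at -5.96, had 1, 0 and 2 counts against 82, 49 and 2. Both are named because control replicate 3 was like the sustained libraries in them. When control replicate 2 was left out, DESeq2 called 0 of 42595 transcripts with an adjusted p (0%). In edgeR's quasi-likelihood test without that library, 11 of the 16 still had an unadjusted p under 0.05. The remaining libraries also entered the choice of the 16, so this was made likely and is no independent support. Over all transcripts with at least 20 counts in the 6 libraries, 75 had 90% or more of them in control replicate 2, against 0 to 9 for each other library.

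edgeR's exact test called 3 transcripts with all libraries. They were TRINITY_DN168648_c1_g1_i1 (adjusted p = 0.00728), TRINITY_DN138837_c0_g1_i1 (adjusted p = 0.0469) and TRINITY_DN184943_c2_g3_i2 (adjusted p = 0.0469), the last named because of this call. TRINITY_DN184943_c2_g3_i2 was at 1.13, 0.923 and 0.494 CPM in the sustained libraries and at 4.87, 6.56 and 2.96 CPM in the control libraries. The groups did not overlap, and the acute and recovery libraries ranged between 0.814 and 3.16 CPM, overlapping both. Its log2 difference was -2.47 ± 0.50 (SE), and it was also among the DESeq2 calls (adjusted p = 0.0067) but not among those of edgeR's quasi-likelihood test (adjusted p = 0.98).

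Without control replicate 2 the comparison again held no transcript past the main test. Of 42640 transcripts, edgeR's quasi-likelihood test called 0 (0%), with a lowest adjusted p of 1. At an unadjusted p under 0.05, 1117 were higher (2.62%) and 469 lower (1.1%) in the sustained group, together 3.72%. DESeq2 had 1709 and voom 2714 at that threshold. The share of higher among these was 70.4%, against 53.9% with all libraries. By library totals alone it was 50.4%, with 434 higher and 427 lower and a median log2 difference of -0.133 in place of 0.005. A difference over 4-fold lay outside the 95% interval for 76.1% of transcripts, and one over 2-fold for 38.4%.

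Leaving out control replicate 2 affected the lower transcripts more than the higher ones. Of the 981 higher transcripts, 640 (65.2%) kept an unadjusted p under 0.05, and of the 838 lower ones 237 (28.3%) did. The 877 that passed in both fits, all with the same sign, were 48.2% of those past the threshold with all libraries and 58.5% of the 1500 such transcripts past it without control replicate 2. Control replicate 2 was the highest of the control libraries for 75.9% of the 838 lower transcripts, against 38.8% of all tested transcripts. Over all 40943 transcripts, the median change of the log2 difference was 0.18, 77.8% kept their sign, and 966 (2.36%) moved by more than 1 on the log2 scale. With differences rounded to 3 decimals, 965 moved upwards by more than 1 and 0 downwards, since leaving out 1 low library of 3 can raise a mean only a little.

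**Figure D4:**
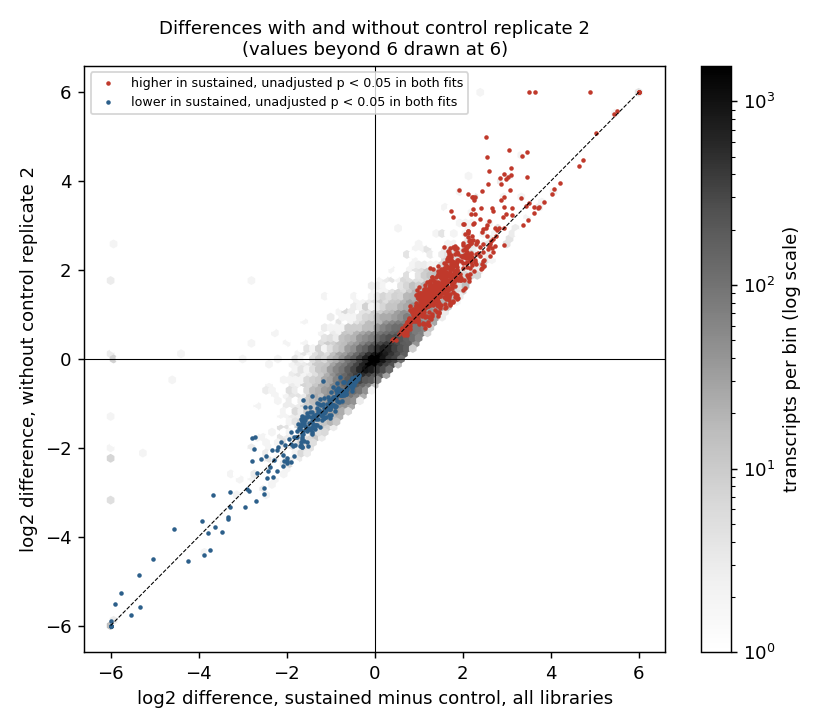
Log2 difference, sustained minus control, of 40943 transcripts with all libraries (x) and without control replicate 2 (y), as binned counts in grey, with transcripts at an unadjusted p under 0.05 in both fits in red (higher, 640) and blue (lower, 237). The dashed line marks equal values; the cloud is asymmetric about it, with 965 transcripts more than 1 above it and 0 more than 1 below.

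Of the 4 transcripts with the smallest p without control replicate 2, 3 had control replicate 2 far from the other control libraries. TRINITY_DN148159_c0_g1_i1 had 24, 42 and 35 counts in the sustained libraries, against 1 and 3 in control replicates 1 and 3 and 15 in the shallower control replicate 2. In CPM it was at 0.751, 1.76 and 1.57 in the sustained libraries and at 0.0399, 1.22 and 0.117 in control replicates 1 to 3. Control replicate 2 thus lay within the range of the sustained libraries, as did the acute and recovery libraries but for 1 acute library; those groups ranged from 0.42 to 1.51 CPM. The log2 difference without it was 4.02 ± 0.76 (SE; edgeR unadjusted p = 7.8e-05, adjusted p = 1), and with it 1.81 ± 0.85 (unadjusted p = 0.052).

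TRINITY_DN154865_c1_g1_i1 had 20, 28 and 20 counts in the sustained libraries, and 2, 9 and 1 in control replicates 1 to 3. Its level was 0.625, 1.18 and 0.898 CPM in the sustained libraries and 0.0798, 0.729 and 0.0389 CPM in the control libraries. Control replicate 2 again lay within the sustained range. The ratio of summed counts between the sustained libraries and control replicates 1 and 3 was 14.7 (95% exact interval 4.83 to 73.2, counting error only). The log2 difference without control replicate 2 was 3.81 ± 0.78 (SE; edgeR unadjusted p = 0.00018, adjusted p = 1), and with it 1.92 ± 0.80 (unadjusted p = 0.031, adjusted p = 0.98). The acute libraries were at 0.702 to 1.32 CPM and the recovery libraries at 0.214 to 0.592 CPM.

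Among lower transcripts, TRINITY_DN168648_c1_g1_i1 remained the one with the smallest p, at a log2 difference of -2.99 ± 0.59 (SE; edgeR unadjusted p = 0.00014, adjusted p = 1). The next was TRINITY_DN188408_c1_g11_i1, at 3.03, 4.41 and 5.61 CPM in the sustained libraries and at 15.7, 1.86 and 13.6 CPM in control replicates 1 to 3. The sustained libraries lay below control replicates 1 and 3 and above control replicate 2. The acute libraries were at 0.534 to 1.51 CPM, below every sustained library, and the recovery libraries were at 4.11 to 7.75 CPM. The log2 difference was -1.76 ± 0.36 without control replicate 2 (SE; edgeR unadjusted p = 0.00017, adjusted p = 1) and -1.27 ± 0.60 with it (unadjusted p = 0.057). edgeR's exact test called TRINITY_DN148159_c0_g1_i1 and TRINITY_DN168648_c1_g1_i1 without control replicate 2 (adjusted p = 0.0499 for each), 2 of 42640 (0.00469%).

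A further transcript was called when the fit held the sustained and control libraries alone, without control replicate 2. TRINITY_DN171543_c3_g2_i3, named because of this call, was at 14.7, 21.7 and 12.8 CPM in the sustained libraries and at 1.12, 0.81 and 1.95 CPM in the control libraries. The lowest sustained library was thus well above the highest control library, and control replicate 2 was near its own group. Its log2 difference was 3.41 ± 0.33 in that fit of 5 libraries (SE; edgeR adjusted p = 0.025). It was 3.62 in the fit of the 6 libraries (adjusted p = 0.25) and 3.62 ± 0.99 in the fit of all 12 (SE; adjusted p = 0.98). The acute libraries were at 5.5, 16.2 and 0.877 CPM and the recovery libraries at 4.98, 21.5 and 27.9 CPM. Libraries of these groups thus spanned from control-like to sustained-like levels. The fit of 5 libraries had 3 residual degrees of freedom, against 8 in the fit of all 12. Why the larger fits did not call this transcript was not tested.

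The count of transcripts past the unadjusted threshold depended on single libraries in both groups. It was 944 without sustained replicate 2 (468 higher and 476 lower), 1344 without sustained replicate 3 and 2015 without sustained replicate 1, against 1819 with all libraries. It was 2229 without control replicate 1 and 2505 without control replicate 3 (1160 higher and 1345 lower). The fits without control replicate 1 or 3 were those in which the lower transcripts outnumbered the higher ones most, and in them control replicate 2 is 1 of 2 control libraries. Across these 6 fits edgeR's quasi-likelihood test called 0 transcripts, and the lowest adjusted p was 0.21, without control replicate 3.

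**Figure D5:**
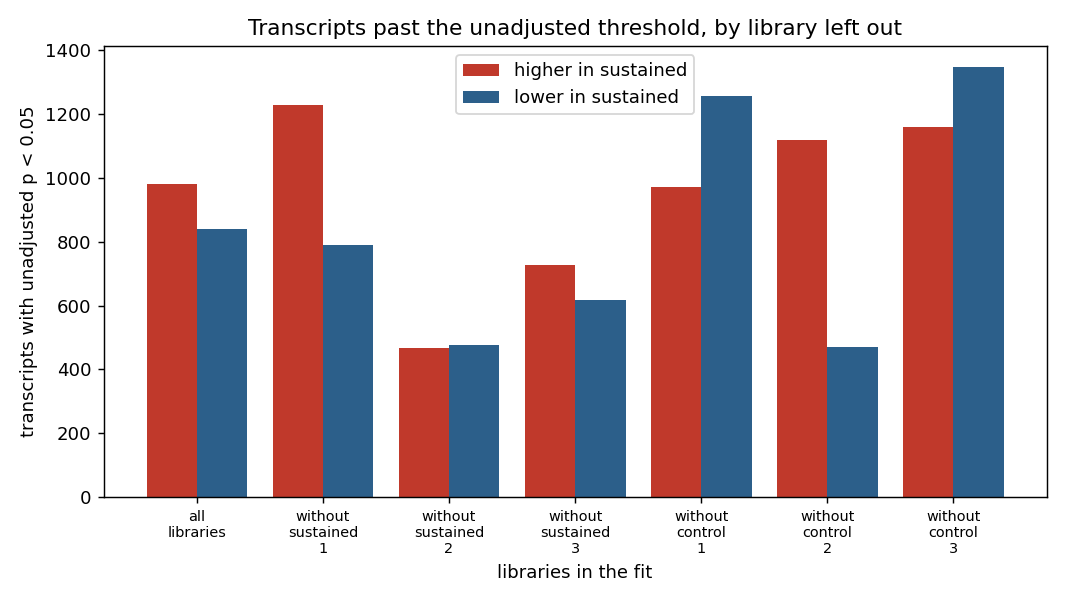
Number of transcripts higher (red) or lower (blue) in the sustained group at an unadjusted p under 0.05, with all libraries and with each sustained or control library left out. The count of both directions together lies between 944 without sustained replicate 2 and 2505 without control replicate 3.

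Group ranges in CPM gave a count that rests on no model of the spread. All sustained libraries lay above all control libraries for 2395 transcripts (5.85%) and below them for 1998 (4.88%). The gap between the nearest libraries exceeded 2-fold, after adding 0.2 CPM, for 16 of the higher and 12 of the lower ones. With 3 libraries against 2, control replicate 2 being left out, the counts were 4564 (10.7%) and 4135 (9.7%), with gaps over 2-fold for 95 and 42. If the libraries were exchangeable between groups, each direction would be a single outcome among 20 equally likely splits of 3 against 3. For 3 against 2 there are 10 such splits. The shares of both comparisons were near what these splits give. Complete presence or absence was rare. Of the 44985 transcripts, 38 had counts in every sustained library and 0 in every control library, and 11 the reverse. None of either kind had 10 or more counts in each library of the group that expressed it. The 11 include the transcript with 1360 counts in control replicate 2 described above.

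Most of the abundant transcripts had small differences, but that with the largest share varied widely within both groups. TRINITY_DN157064_c6_g3_i1, which took the largest share of all counts, was at 19.4%, 7.04% and 43.8% in the sustained libraries and at 26%, 25.2% and 0.00387% in the control libraries. The 95% Wilson interval of the lowest of these was 0.003604% to 0.004156% and that of the highest 43.79% to 43.83%, which cover counting error only. The groups overlapped, and the log2 difference was 0.66 ± 2.36 (SE; edgeR unadjusted p = 0.79), so its 95% interval, -4.75 to 6.06, holds large differences in both directions. The estimate was 6.73 by voom with sample weights (limma adjusted p = 0.79) and -0.53 without sustained replicate 3. Once this transcript was left out of the totals, the 100 most abundant of the others took 28%, 28.4% and 28.5% of the counts in the sustained libraries and 28.9%, 29.1% and 29.7% in the control libraries, in order of size.

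The next 3 transcripts by share were close to their control levels. TRINITY_DN190772_c7_g6_i3 averaged 28400 ± 2140 CPM in sustained animals, against 32200 ± 5120 CPM in control animals (SD, n = 3 each). TRINITY_DN171713_c5_g3_i1 averaged 10100 ± 2070 CPM in sustained animals and 11600 ± 2460 CPM in control animals. TRINITY_DN190198_c2_g1_i1 averaged 9690 ± 517 CPM in sustained animals and 11100 ± 1350 CPM in control animals. The 95% intervals of their log2 differences lay between -0.59 and 0.17, so a 2-fold difference in either direction was outside each interval. Among the 100 most abundant transcripts the median absolute log2 difference was 0.12, against 0.28 over all tested. Of these 100, 0 were higher and 1 was lower at an unadjusted p under 0.05, and 1 had a difference over 2-fold. The transcript over 2-fold, TRINITY_DN173294_c3_g2_i1, named after its values were seen, was at 560, 4580 and 1620 CPM in the sustained libraries and at 1080, 47.6 and 165 CPM in the control libraries, which overlapped (log2 difference 2.38 ± 1.19, SE; edgeR unadjusted p = 0.079). The lower one, TRINITY_DN168576_c3_g8_i1, named in the same way, was at 1160, 1150 and 1160 CPM in the sustained libraries and at 1350, 1980 and 1300 CPM in the control libraries, which did not overlap (log2 difference -0.42 ± 0.15, SE; edgeR unadjusted p = 0.014, adjusted p = 0.98).

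Counts were then summed over the isoforms of each assembly gene, which rejoins reads that the counting may have split. Of 32886 summed genes, edgeR's quasi-likelihood test called 0 (0%), with a lowest adjusted p of 0.97. At an unadjusted p under 0.05, 835 were higher (2.54%) and 656 lower (1.99%) in the sustained group. Leaving out control replicate 2, the test called 0 of 33949 (0%), with 958 higher (2.82%) and 320 lower (0.943%). By library totals alone, 259 were higher and 647 lower. The higher gene with the smallest p, TRINITY_DN189223_c4_g5, was at 14.8, 16.6 and 14.8 CPM in the sustained libraries and at 8.74, 5.92 and 7.51 CPM in the control libraries. The groups did not overlap, and the log2 difference was 1.05 ± 0.24 (SE; edgeR unadjusted p = 0.0007, adjusted p = 0.97). The acute libraries were at 8.63 to 10.5 CPM and the recovery libraries at 8.49 to 16.4 CPM. The lower gene with the smallest p was that of TRINITY_DN180259_c0_g6_i1, which has a single isoform. Among genes with at least 2 isoforms at an unadjusted p under 0.05, 41 of 43 had them all in one direction, 25 higher and 16 lower in the sustained group; isoforms of a gene share reads, so like signs may come from the counting and this was not tested.

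Whether the animals used different isoforms was asked with edgeR's test of differential usage. It compares each isoform's log2 difference with that of its gene as a whole. Of 6637 genes with at least 2 tested isoforms, 0 were called (0%), and 34 (0.512%) had an unadjusted Simes p under 0.05. The unadjusted count without control replicate 2 was 44 of 7040 (0.625%). TRINITY_DN190319_c3_g1 had the smallest Simes p, 0.0015 (edgeR's diffSpliceDGE, adjusted p = 1). Its isoform TRINITY_DN190319_c3_g1_i3 had 0 of 748, 0 of 512 and 0 of 410 counts of the gene in the sustained libraries, which allows shares of up to 0.401%, 0.586% and 0.732% by the limit of 3 counts of the total, and up to 0.511%, 0.745% and 0.928% by the upper 95% Wilson bound. In the control libraries it had 15 of 594 (2.53%, 95% Wilson interval 1.54% to 4.12%), 8 of 261 (3.07%, 1.56% to 5.93%) and 0 of 473. Control replicate 3 was thus like the sustained libraries. The other isoform, TRINITY_DN190319_c3_g1_i1, held the rest, and at 21.1 ± 2.52 CPM in sustained animals and 20.7 ± 2.35 CPM in control animals (SD, n = 3 each) it had a log2 difference of 0.03 ± 0.22 (SE).

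TRINITY_DN182381_c1_g1 had the next smallest Simes p, 0.0019 (edgeR's diffSpliceDGE, adjusted p = 1). Its isoform TRINITY_DN182381_c1_g1_i3 made up 3.89%, 2.22% and 1.56% of the gene's counts in the sustained libraries and 5.03%, 51.7% and 12.2% in control replicates 1 to 3. The high share in control replicate 2 was 30 of 58 counts (95% Wilson interval 39.2% to 64.1%). The isoform TRINITY_DN182381_c1_g1_i5 made up 64.4%, 51.7% and 57.8% in the sustained libraries and 46.9%, 15.5% and 49.4% in the control libraries. The Simes p of this gene was 0.18 once control replicate 2 was left out.

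The difference between recovery and acute animals is not the one by which transcripts were ranked, although both groups entered the estimate of the spread behind each p. Recovery animals, like sustained ones, had spent their early days at 17 °C. Their last 24 h were at 14 °C, as in control animals, and those of acute animals were at 17 °C. Early and last-day temperature thus cannot be told apart in this difference. The 200 lower transcripts with the smallest p had a median difference, recovery minus acute, of -0.24 in mean log2 (CPM + 0.5), and 25% of them were positive, against 48.2% of all tested transcripts. Leaving out each acute or recovery library in turn, a check chosen after seeing the data, gave 22.5% to 32.5%. The 200 higher transcripts had a median of 0.14, with 70% positive. That share was 47.5% without recovery replicate 3 and 55.5% without acute replicate 3. For transcripts chosen in the same way without control replicate 2, 38.5% of the lower and 46.5% of the higher 200 were positive, and the share in the higher ones was 26% without recovery replicate 3. The direction in the higher transcripts thus rested on single libraries, and in the lower ones it was nearer to that of all transcripts once control replicate 2 was left out.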

How the data were processed

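Each deposited value is a raw count of reads for 1 assembled transcript in 1 library, as the authors deposited it and with no scaling. RNA came from whole adult copepods and was made into stranded poly(A) libraries, read from both ends, per the labels' protocols. Tools listed in the submitters' processing notes, without role or order, are HTSeq 0.6.1, TopHat2 2.1.1, Trim Galore 0.4.1 and edgeR. How the transcripts were assembled and counted is not given in the sources used here. Chi-square per degree of freedom between replicates of the sustained or control group was 35.6 to 220, so none repeated another of its group. Other pairs of libraries were not compared in this way.

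The quasi-likelihood test of edgeR 4.0.16, run under R 4.3.3, gave the differences (TMM scaling, robust dispersion, minimum count 10, minimum total 15, prior count 0.125), with all 4 groups in one fit of 8 residual degrees of freedom, and Benjamini-Hochberg adjustment over all transcripts tested; the biological coefficient of variation was 37%. The fit was repeated without control replicate 2 (7 degrees of freedom, 33.3%). Printed CPM use the scaling of the fit of 12 libraries. An SE is the log2 difference over the square root of F, and 95% intervals rest on it; both are approximate. Log2 CPM for distances and SDs had a prior count of 2. DESeq2 1.42.0, edgeR's exact test and limma 3.58.1 voom were alternatives, and isoform usage was tested with edgeR's diffSpliceDGE. The tests were checked on simulated data. Figures were drawn with matplotlib 3.10.9.

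Named transcripts were the 2 with the smallest p in each direction in either fit, the summed gene with the smallest p in each direction, the 2 genes with the smallest p for isoform usage and the 4 with the largest share of counts. The groups, lists and tests were chosen with earlier results of these data known. Gene lists were not used, because identifiers carry no names.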

Additional observations from a re-analysis of the deposited data

How the results depend on the processing

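Between sustained and control animals edgeR's quasi-likelihood test called 0 transcripts without a low-count filter, under RLE factors or library totals alone, at 1 CPM or more in 3 libraries, in a fit of the sustained and control libraries only and without the transcript of largest share. DESeq2 called 16 and edgeR's exact test 3. Without control replicate 2, the exact test called 2, the fit of the sustained and control libraries only called 1, and the other settings, DESeq2 among them, 0. Leaving out each sustained or control library gave 0 to 0 called transcripts in either fit; with control replicate 2 and another control library out, the lone control library is assumed to vary like the other groups. Summed genes and isoform usage gave 0 under every setting tried, the gene-level F test of usage included. The unadjusted counts varied more: with all libraries 1179 by library totals alone, 1292 at 1 CPM in 3 libraries and 2569 with voom, and without control replicate 2 from 861 by library totals alone to 2714 with voom, 984 at 1 CPM in 3 libraries, 1030 without control replicate 1 and 994 without sustained replicate 2; the causes were not tested. The log2 difference of TRINITY_DN157064_c6_g3_i1 ranged from -0.53 without sustained replicate 3 to 1.19 over the libraries left out, and was 6.73 with voom. No other named log2 difference changed sign under the alternatives run. No paired analysis was possible because the labels number no replicates, and numbers here follow the order of deposit. Depth and 3 replicates per group limit what low transcripts can show: under 1 CPM 0.891% of intervals lay within 2-fold.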
